A study of Rattus norvegicus with 8 samples.

Results

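The core circadian clock genes measured here were *Per1*, *Per2*, *Nr1d1*, *Nr1d2*, *Tef*, *Bmal1* (*Arntl* in older annotation), *Npas2*, *Clock* and *Nfil3*. They were taken by name, as all probe sets annotated to 1 of these symbols alone, and all 9 were found, with 17 probe sets among the 14217 genes and 31099 probe sets of the array. The 9 were chosen by their signals in these same arrays, in which they had been seen to differ between groups, so their group levels are given as a description. Where the number of them past a threshold is given, the share of all tested genes past it stands beside, and because the choice of genes fixes such a count in advance, it is no test of them and nothing is read from it. Epithelial cells loosened from the proximal small intestine of female Wistar rats aged 4 months were profiled on 8 Affymetrix Rat Genome 230 2.0 arrays, 2 for each of 4 groups. WR rats had their water restricted, for 12 h by the labels, though a remark in the study's text ties its microarray data to a longer restriction. DSW1200 rats drank desalted deep-sea water with a hardness of 1200 for 3 days, SeW rats drank selenium water for 3 days, and the TW rats set against them drank tap water for 3 days. No altered gene is named for any group, and nothing states that the 2 arrays of a group came from separate animals, so their spread may be technical. The hour at which tissue was taken is not given in the sources used here, and in this design that hour and the drinking water cannot be told apart.

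The circadian clock is a loop of transcription and repression that runs in nearly every cell of the body, the intestinal epithelium included. BMAL1 pairs with CLOCK or NPAS2 and switches on genes that carry an E-box, among them the *Per* and *Cry* genes, whose proteins then hold the pair back. The same pair switches on *Nr1d1* and *Nr1d2*, which encode the REV-ERB receptors, and these repress *Bmal1*, *Npas2*, *Clock* and *Nfil3* through REV-ERB response elements (RRE). TEF and its relatives activate genes through D-boxes, and NFIL3 represses through the same element. In rodent tissues the REV-ERB transcripts and the *Bmal1* transcript are known to peak at opposite times of the day, and feeding time resets the clock of the gut.

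Promoter sequences are shown because the loop is known to act on genes through elements such as those named above. The RefSeq promoter table of the GRCr8 build listed all 9 genes, with 11 windows, of which the 250 bases before the start were searched on both strands for 4 motifs: the E-box CACGTG, the E-prime box CACGTT, the D-box TTANGTAA and the RRE core TAGGTCA. Of 33469 promoters in the table, 5.59% held the E-box, 4.07% the E-prime box, 2.04% the D-box and 2.26% the RRE core in the same stretch. At least 1 of them was found in 5 windows of 4 genes, and 4 of these windows are printed 5′ to 3′ with the matches in capitals. They are *Bmal1* on the plus strand at chr1:176766078-176766327 with an RRE core, *Per2* on the minus strand at chr9:99496994-99497243 with a D-box and then an E-prime box, *Nr1d1* on the minus strand at chr10:84229455-84229704 with an E-box, and *Tef* on the plus strand at chr7:115206577-115206826 with an E-box.
Bmal1: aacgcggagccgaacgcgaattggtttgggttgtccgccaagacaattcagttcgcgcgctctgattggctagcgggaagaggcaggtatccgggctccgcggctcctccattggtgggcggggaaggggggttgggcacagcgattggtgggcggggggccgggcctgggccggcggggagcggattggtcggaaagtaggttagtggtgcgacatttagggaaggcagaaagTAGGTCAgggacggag
Per2: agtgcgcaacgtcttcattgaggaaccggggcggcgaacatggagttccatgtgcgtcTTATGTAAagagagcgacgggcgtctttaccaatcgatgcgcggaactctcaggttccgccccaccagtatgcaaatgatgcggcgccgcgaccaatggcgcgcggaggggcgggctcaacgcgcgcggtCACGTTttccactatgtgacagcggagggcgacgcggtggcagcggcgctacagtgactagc
Nr1d1: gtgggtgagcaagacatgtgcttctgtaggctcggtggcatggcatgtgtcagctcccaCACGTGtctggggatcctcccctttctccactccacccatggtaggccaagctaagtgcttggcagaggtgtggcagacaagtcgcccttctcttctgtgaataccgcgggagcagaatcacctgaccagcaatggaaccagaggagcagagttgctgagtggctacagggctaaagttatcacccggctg
Tef: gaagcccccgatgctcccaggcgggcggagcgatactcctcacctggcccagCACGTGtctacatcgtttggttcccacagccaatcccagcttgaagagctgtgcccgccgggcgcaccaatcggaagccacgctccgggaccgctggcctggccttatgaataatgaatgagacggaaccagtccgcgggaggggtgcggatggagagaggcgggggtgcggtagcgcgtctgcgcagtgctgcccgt
The RRE core of *Bmal1* lay 16 to 10 bases before the start, the D-box of *Per2* 192 to 185 bases and its E-prime box 62 to 57 bases before it. The second window of *Nr1d1* held an E-prime box on the opposite strand. These are matches of letters, not measured binding sites, and the windows of *Per1*, *Nr1d2*, *Npas2*, *Clock* and *Nfil3* held none of the 4.

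Signals are MAS5 intensities, quantile normalized over the 8 arrays and floored at 1. Each gene is read from its brightest probe set. Tests covered the 9258 genes brighter than 6.69, the median over the array's probe sets, and all 9 clock genes were among them. Before normalization the arrays were not equally bright: median signals were 11.1 and 10.6 in SeW, 6.1 to 9.0 in WR and DSW1200, and 8.4 and 4.3 in TW. The ratio of 3′ to 5′ beta-actin signal, larger in RNA that is broken or only partly copied, averaged 12.3 in SeW, 23.0 in WR, 29.9 in DSW1200 and 22.3 in TW. The SeW arrays were thus the brightest and had the lowest ratios, so brightness and RNA state moved with the group in which the clock genes stood out. TW replicate 2 had the lowest mean correlation with the arrays of the other groups (0.907), below that of TW replicate 1 (0.929).

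The REV-ERB receptor genes were highest in SeW. *Nr1d1*, which encodes REV-ERB alpha, gave signals of 10.7 and 23.8 in WR, 1.26 and 5.90 with DSW1200 and 53.0 and 80.5 with SeW, against 13.0 and 5.76 with TW. Both SeW arrays lay above all 6 others, while the arrays of WR overlapped with those of TW and those of TW with those of DSW1200. Such a separation was common: of all 9258 tested genes, 979 had both SeW arrays above all 6 others and 1207 below them (23.6% in all). On the log2 scale *Nr1d1* was 2.92 higher in SeW than in TW (SE 0.74, 7.55-fold), 4.58 higher than in DSW1200 and 2.03 higher than in WR. Its DSW1200 signals lie close to the floor, so that difference depends on how low signals are treated: with 32 added before taking log2 it was 1.46.

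*Nr1d2*, which encodes REV-ERB beta, gave 55.35 and 86.4 in WR, 30.3 and 55.8 with DSW1200 and 180.25 and 248 with SeW, against 38.5 and 42.1 with TW. The SeW arrays again lay above all others, and both WR arrays lay above both TW arrays. On the log2 scale *Nr1d2* differed from TW by 2.39 in SeW (SE 0.32, 5.26-fold) and by 0.78 in WR. A second probe set of *Nr1d2* gave 19.2 and 38.3 in WR, 16.2 and 21.4 with DSW1200 and 84.3 and 119 with SeW, against 17.8 and 18.2 with TW, so its highest arrays were also those of SeW. The last one was dim, at no more than 6.48 on any array, and lay at the floor in WR against 2.46 and 4.48 in TW. With the mean of its probe sets, *Nr1d2* was 0.12 lower in WR than in TW, and 1.87 higher in SeW than in TW. As in any bulk sample, less RNA per cell and fewer cells of a type cannot be told apart here.

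Of the *Per* genes, whose products close the negative feedback, *Per2* on its brightest probe set varied more between groups than *Per1*. *Per2* gave 35.9 and 30.2 in WR, 137 and 55.4 with DSW1200 and 128 and 182 with SeW, against 54.4 and 92.8 with TW. The WR arrays were the lowest of the 8 and the SeW arrays lay above those of TW, but the brighter DSW1200 array lay between the SeW arrays. *Per2* was 1.11 log2 units lower in WR than in TW and 1.10 higher in SeW than in TW (SE 0.40 for both). The difference between SeW and WR was 2.21. Its second probe set was dim, with 10.3 and 3.01 in WR, 4.73 and 26.7 with DSW1200 and 3.73 and 17.3 with SeW, against 19.9 and 18.4 with TW. That set did not follow the first: with the mean of both in place of the brighter one, the difference between SeW and TW was -0.07.

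*Per1* gave 42.0 and 54.9 in WR, 39.15 and 29.0 with DSW1200 and 48.5 and 67.3 with SeW, against 29.45 and 50.15 with TW. All neighbours in the order SeW, WR, TW and DSW1200 overlapped, and the difference between SeW and TW was 0.57 log2 units (SE 0.31).

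The 2 factors that act on D-boxes went opposite ways in SeW. *Tef*, the activator, gave 12.55 and 23.5 in WR, 21.6 and 11.9 with DSW1200 and 32.1 and 55.65 with SeW, against 20 and 19.0 with TW. Both SeW arrays were above all others, and the other 3 groups overlapped. The difference between SeW and TW was 1.12 log2 units (SE 0.42). A second probe set of *Tef* gave 11.1 and 9.14 in WR, 14.5 and 3.76 with DSW1200 and 15.1 and 24.2 with SeW, against 3.64 and 11.3 with TW. It too was highest on the SeW arrays, and the last was dim, at no more than 5.69 on any array.

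*Nfil3*, the repressor, gave 96.3 and 79.9 in WR, 77.05 and 100.1 with DSW1200 and 22.25 and 10.99 with SeW, against 90.2 and 90.7 with TW. It was the most even of the clock genes across WR, DSW1200 and TW, whose means lay within 0.04 log2 units of one another, and both SeW arrays lay far below them. The difference between SeW and TW was -2.53 log2 units (SE 0.31), a 5.79-fold lower signal in SeW. *Nfil3* has 1 probe set on the array.

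The activators of the loop were lowest in SeW. *Bmal1*, its obligate partner, gave 62.7 and 61.9 in WR, 55.6 and 47.4 with DSW1200 and 26.3 and 13.25 with SeW, against 51.8 and 51.8 with TW. The SeW arrays lay below all others, the TW arrays fell between those of DSW1200, and the WR arrays were the highest by a small margin. *Bmal1* was 1.47 log2 units lower in SeW than in TW (SE 0.30, 2.78-fold). *Npas2*, which can stand in for *Clock* as partner of *Bmal1*, gave 597 and 564 in WR, 598 and 693 with DSW1200 and 423 and 307 with SeW, against 714 and 586 with TW. Here too the SeW arrays were the lowest, and the difference from TW was -0.84 (SE 0.19).

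*Clock* gave 167 and 164 in WR, 257 and 191 with DSW1200 and 117 and 91.3 with SeW, against 173 and 134 with TW. The SeW arrays lay below all 6 others, the DSW1200 arrays above all 6 others, and WR and TW overlapped. The difference from TW was -0.56 log2 units in SeW and 0.54 in DSW1200 (SE 0.22 for both), and SeW lay 1.10 below DSW1200. A second probe set gave 56.3 and 58.3 in WR, 75.8 and 62.5 with DSW1200 and 44.1 and 29.3 with SeW, against 73.0 and 72.0 with TW, and was also lowest in SeW. Another, dim one read the other way, with 1.71 and 1.28 in WR, 1.76 and 1.80 with DSW1200 and 6.61 and 6.29 with SeW, against 6.61 and 13.5 with TW, so with the mean of its 4 probe sets *Clock* was 0.29 higher in SeW than in WR.

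**Figure D1:**
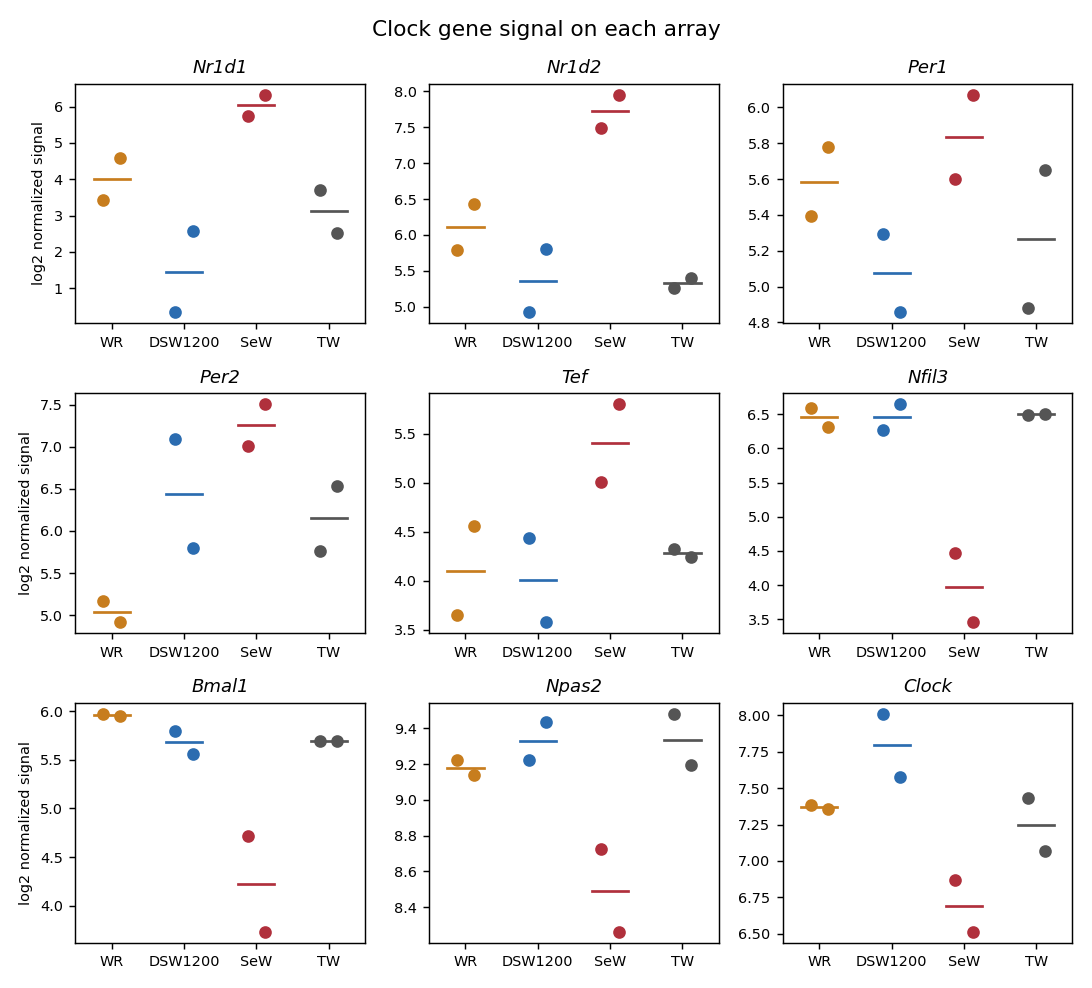
Log2 normalized signal of the 9 clock genes on each of the 8 arrays, by group (points: arrays, bars: mean of the 2 arrays of a group; each panel has its own scale). The SeW arrays stood above all 6 others for *Nr1d1*, *Nr1d2* and *Tef* and below them for *Nfil3*, *Bmal1*, *Npas2* and *Clock*. Over all 9258 tested genes, 23.6% had both SeW arrays above or below all 6 others.

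On the SeW arrays the 9 genes, chosen by their signals in these arrays, fell into the 2 arms of the loop. The 4 genes that REV-ERB is known to repress (*Bmal1*, *Npas2*, *Clock* and *Nfil3*) had a median deviation from their own mean of 0.36 and 0.28 log2 units in WR, 0.42 and 0.33 with DSW1200 and -0.54 and -1.24 with SeW, against 0.35 and 0.21 with TW. All 4 were below their mean on both SeW arrays, and above it on the other 6 arrays except *Clock* on TW replicate 2 (-0.21). Each mean includes the SeW arrays, so a gene far to one side on them tends to lie on the other side elsewhere. The signs on the other arrays are thus partly fixed by the SeW values. The 5 genes driven through E-boxes and D-boxes (*Per1*, *Per2*, *Nr1d1*, *Nr1d2* and *Tef*) had medians of -0.34 and 0.30 in WR, -0.15 and -0.58 with DSW1200 and 0.78 and 1.35 with SeW, against -0.46 and -0.20 with TW. All 5 were above their mean on both SeW arrays, and below it on WR replicate 1 and DSW1200 replicate 2, but they spread to both sides of it on WR replicate 2 (-1.31 to 0.92), DSW1200 replicate 1 (-3.31 to 0.87) and both TW arrays. Repressors of the loop outside the 9 did not all follow: of 4 bright enough to test, 3 were lower in SeW than in TW. These were *Cry1* (-0.49), *Bhlhe40* (-0.49) and *Cry2* (-0.11), while *Cipc* was 1.74 higher. The median of all tested genes stayed between -0.03 and 0.06 on every array. SeW replicate 2 was the further from the mean for every one of the 9 genes, and DSW1200 replicate 1 held the lowest values of *Nr1d1* (-3.31) and *Nr1d2* (-1.21) beside the highest of *Clock* (0.73).

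**Figure D2:**
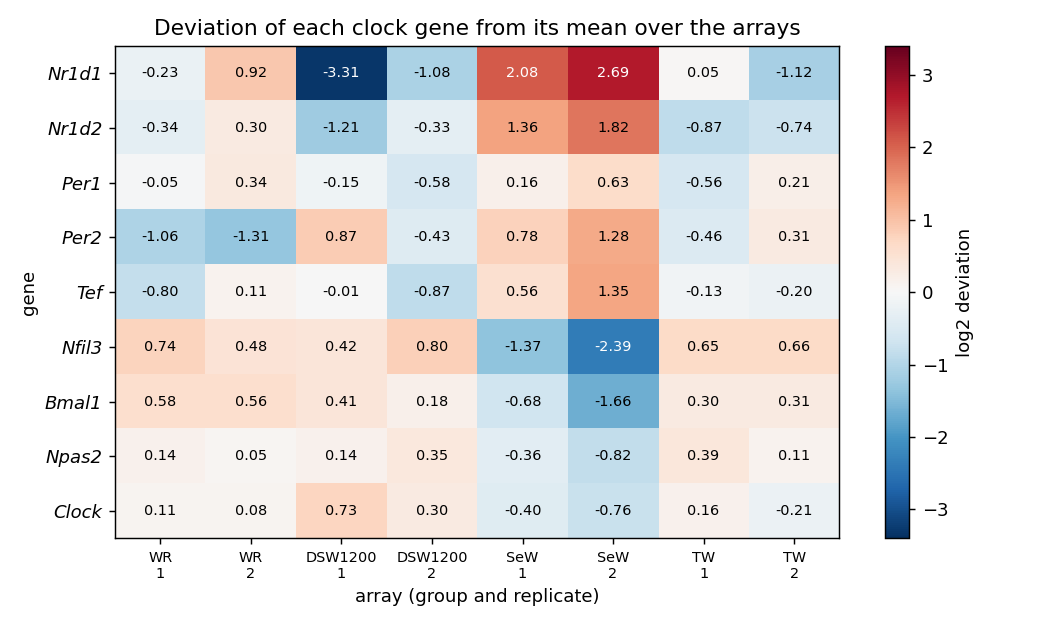
Deviation of each clock gene, in log2 units, from its mean over the 8 arrays (columns: arrays by group and replicate, red: above the mean, blue: below). On both SeW arrays the upper 5 genes lay above their mean and the lower 4 below it, down to -2.39 for *Nfil3* on SeW replicate 2.

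The comparison with TW asks whether each kind of water moved the clock genes from their level on tap water. In limma's model over all genes, with p-values adjusted over the 9258 tested and 0.05 as the threshold, 0 of the 9 clock genes passed between WR and TW (0.0108% of all genes), 0 between DSW1200 and TW (0% of all genes) and 3 between SeW and TW (1.91% of all genes). The counts at an unadjusted p of 0.05 were 2, 2 and 8 in the same order, where 9.7%, 7.92% and 19.6% of all genes passed. The 3 in SeW, named as a description, were *Nr1d2*, higher (0.799% of all genes), and *Bmal1* and *Nfil3*, lower (1.11%). The arrays of the 2 groups did not overlap for 3 clock genes between WR and TW (39.7% of all genes), 1 between DSW1200 and TW (35.9%) and 8 between SeW and TW (51.2%), with *Per1* the exception. By the methods' 2-fold criterion 1, 1 and 6 clock genes differed from TW in WR, DSW1200 and SeW, beside 4.8%, 4.26% and 6.8% of all genes, and 1, 0 and 6 did so without overlap, beside 3.56%, 2.89% and 5.79%. Without SeW replicate 2 the count between SeW and TW was 0, without SeW replicate 1 it was 1, and without any other single array it was 2 or 3. The 3 comparisons share the TW arrays.

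**Figure D3:**
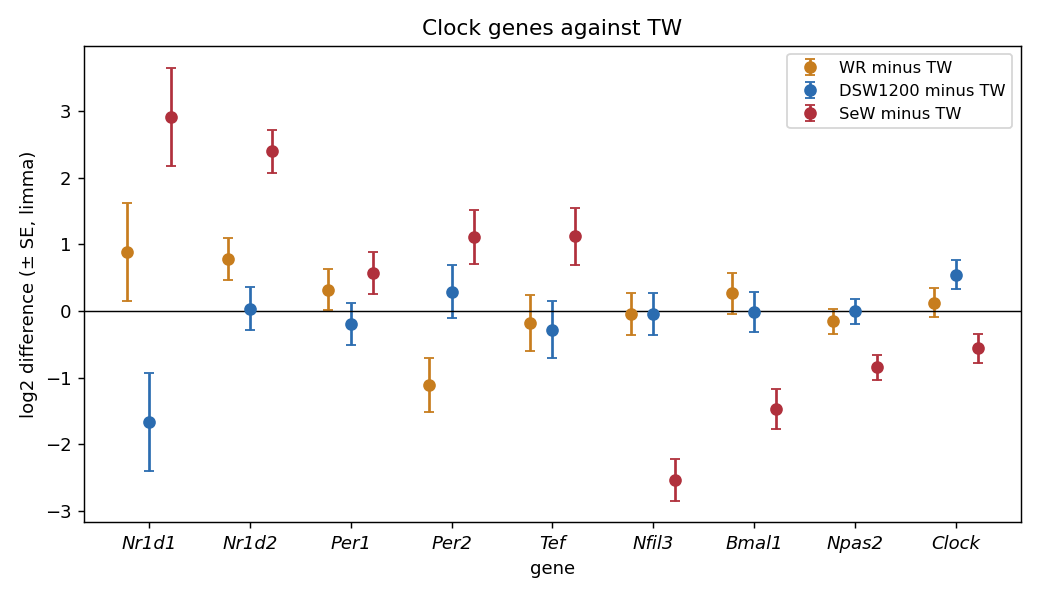
Log2 difference of each clock gene from TW for WR, DSW1200 and SeW (points: limma estimates, error bars: SE). SeW differences run from 2.92 for *Nr1d1* to -2.53 for *Nfil3*, and in WR and DSW1200 those of *Tef*, *Nfil3*, *Bmal1* and *Npas2* stay near 0.

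Without scaling the arrays to one another, SeW exceeded TW by 0.92 log2 units at the median tested gene, so differences on that scale are read against this shift. On it, *Npas2* (0.11) and *Clock* (0.40) were higher in SeW than in TW, though below the median gene, *Bmal1* (-0.51) and *Nfil3* (-1.60) stayed lower, and the 5 E-box and D-box genes were 1.54 to 3.93 higher. When the beta-actin ratio entered the model as a covariate, 8 of the 9 differences between SeW and TW kept their direction and *Clock* did not (0.15), *Nr1d1* was 2.00 and *Nr1d2* 1.73 higher, *Nfil3* was 2.58 and *Bmal1* 0.86 lower, and 0 clock genes and 4 of all tested genes were called. Beyond this, the part of RNA state in these differences was not tested.

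Set against WR and DSW1200, SeW held the same pattern, with the REV-ERB, *Per* and *Tef* genes higher and the other 4 lower. All comparisons with SeW share its 2 arrays, so the pattern is not seen independently in each. Between SeW and DSW1200, 6 of the 9 genes passed limma's threshold (2.72% of all genes), namely *Nr1d1* and *Nr1d2*, higher (1.25%), and *Nfil3*, *Clock*, *Bmal1* and *Npas2*, lower (1.47%). With the beta-actin covariate, *Nr1d1* was 2.97 (4.58 without it), *Nr1d2* 1.19 (2.36), *Bmal1* -0.39 (-1.46), *Npas2* -0.63 (-0.84) and *Per1* 0.74 (0.76). *Clock* turned to 0.14 (-1.10), while *Per2* was 1.46 (0.81), *Tef* 3.09 (1.40) and *Nfil3* -2.58 (-2.49). Between SeW and WR, 4 passed (1.23% of all genes), *Per2* and *Nr1d2* higher (0.562%), and *Nfil3* and *Bmal1* lower (0.67%). The groups did not overlap for 8 genes in each comparison (53.9% of all genes against DSW1200 and 54.2% against WR), and 6 in each passed 2-fold (6.2% and 5.07% of all genes) without overlap (5.41% and 4.55%). As the genes were chosen for differences in these arrays, these counts too are a description. *Nfil3* differed by -2.49 in both comparisons. *Tef* was 1.40 higher in SeW than in DSW1200 and 1.30 higher than in WR (SE 0.42), and *Npas2* was 0.84 and 0.69 lower (SE 0.19). *Per1* was 0.76 and 0.25 higher (SE 0.31). Without SeW replicate 2 both counts were 0, without SeW replicate 1 they were 3 and 1, and without either WR array 0 genes were called between SeW and WR and 3 or 2 between SeW and DSW1200, where leaving out DSW1200 replicate 1 or 2 gave 2 or 3.

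Between DSW1200 and WR 0 clock genes were called (0% of all genes, and 3 of the 9 at an unadjusted p of 0.05 beside 5.84% of all), and the arrays of 6 did not overlap (35.6% of all genes). *Nr1d1* and *Per2* passed 2-fold (3.31% of all genes) without overlap (2.33%). *Nr1d1* was 2.55 log2 units lower in DSW1200 than in WR (SE 0.74), *Nr1d2* was 0.75 lower (SE 0.32), and *Per2* was 1.40 higher (SE 0.40). *Clock* was 0.42 higher (SE 0.22), while *Nfil3* differed by 0.0018 (SE 0.31). The REV-ERB genes and *Per2* thus lay in opposite order in these groups, unlike in SeW where all 3 were high. Over the 6 arrays outside SeW, the correlation of *Nr1d1* with *Per2* was -0.91, against 0.10 over all 8.

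In the F test among the 4 groups, *Nfil3* and *Nr1d2* passed the threshold (0.616% of all genes), and 8 of the 9 genes had an unadjusted p below 0.05 (17.6% of all genes), again as a description of genes chosen for such differences. The span of the 4 group means was 4.58 log2 units for *Nr1d1*, 2.53 for *Nfil3*, 2.39 for *Nr1d2* and 2.21 for *Per2*. It was 1.74 for *Bmal1*, 1.40 for *Tef*, 1.10 for *Clock*, 0.84 for *Npas2* and 0.76 for *Per1*, beside a median of 0.557 over all tested genes. The spread within groups ranked in part with it: the SD between the 2 arrays of a group was 1.00 for *Nr1d1*, higher than for 97.1% of genes, and 0.57 for *Per2* and 0.52 for *Tef*, but 0.24 for *Clock* and 0.21 for *Npas2*, below the median of 0.26.

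Of 21 other clock genes listed, 17 were on the array and 9 were bright enough to test. In limma's model 0 of these 9 were called in any of the 6 comparisons or in the F test, where 0% to 2.72% of all genes were. At an unadjusted p of 0.05 there was 1 in the F test (17.6% of all genes), 1 each between WR and TW (9.7%), DSW1200 and TW (7.92%) and SeW and TW (19.6%), 2 each between SeW and DSW1200 (20%) and SeW and WR (16.5%), and 0 between DSW1200 and WR (5.84%). *Cipc*, which encodes an inhibitor of the CLOCK and BMAL1 pair, gave 120.4 and 129.99 in WR, 142 and 85.4 with DSW1200 and 284 and 551 with SeW, against 66.1 and 214 with TW. Both SeW arrays were the highest, the TW arrays were far apart, and the difference of 1.85 log2 units between SeW and DSW1200 (SE 0.50) had an adjusted p of 0.0806 in limma. *Cry1*, a repressor that works with the PER proteins, was 0.97 lower in SeW than in DSW1200 (adjusted p = 0.120 in limma). *Csnk1e*, a kinase that marks PER proteins for destruction, was 1.47 higher in WR than in TW (adjusted p = 0.465 in limma). It was also 1.40 higher in DSW1200 and 1.12 higher in SeW than in TW, where its signals were dim (6.70 and 4.48). A second, dimmer probe set read the other way, with 2.64 and 1.00 in WR against 5.79 and 4.34 in TW, and the last overlapped between them. *Bhlhe40*, an E-box repressor, was 0.62 lower in SeW than in WR (adjusted p = 0.267 in limma).

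The other 8 were too dim to test, and 2 of them are named because their values were seen to be high in SeW. *Dbp*, a D-box activator like *Tef*, gave 4.52 and 1.00 in WR, 12.7 and 3.09 with DSW1200 and 56.05 and 178 with SeW, against 1.08 and 1.28 with TW. *Per3* gave 1.54 and 1.46 in WR, 1.00 on both DSW1200 arrays, and 20.8 and 51.7 in SeW, against 1.00 on both TW arrays. The SeW arrays were the highest for both genes, and since the TW arrays lie at or next to the floor no fold is given. A second probe set of *Per3* gave 1.00 on both SeW arrays and no more than 2.64 on any. In a fit with no filter on dim genes, chosen after these values were seen, limma's adjusted p for *Per3* was 0.0479 between SeW and DSW1200 and 0.0615 between SeW and TW, and that for *Dbp* between SeW and TW was 0.0966. With all DSW1200 and TW arrays of *Per3* at the floor, these groups show no spread, which lowers its SE. Nothing is read from these p-values.

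**Figure D4:**
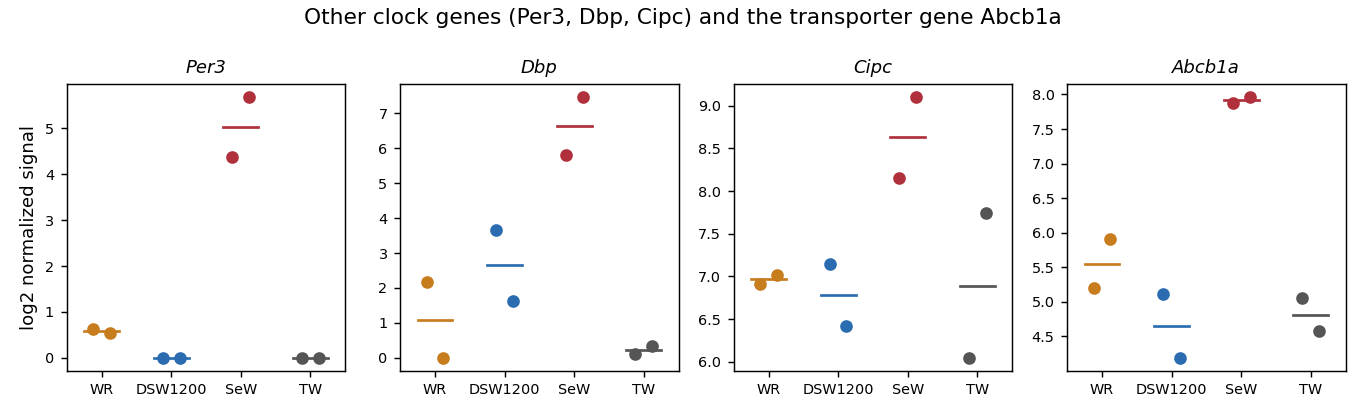
Log2 normalized signal on each of the 8 arrays, by group, of *Per3*, *Dbp*, *Cipc* and *Abcb1a* (points: arrays, bars: mean of the 2 arrays of a group; each panel has its own scale, and 0 is the floor). All 4 genes were highest on the SeW arrays, and *Per3* lay at the floor on all DSW1200 and TW arrays.

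Genes downstream of the clock were listed in 4 groups. Of 10 intestinal transporter and lipid genes known for daily rhythms in rodents, 9 were higher in SeW than in TW, with a median of 0.57 log2 units beside -0.04 over all tested genes, and 1 passed the threshold (1.91% of all genes), a gene that rose (0.799%). The one that rose was *Abcb1a*, which encodes the drug efflux pump P-glycoprotein. It gave 36.8 and 60.0 in WR, 34.8 and 18.3 with DSW1200 and 235 and 250.4 with SeW, against 33.2 and 23.9 with TW. It rose by 3.11 log2 units between SeW and TW (SE 0.34, adjusted p = 0.00974 in limma), by 3.27 between SeW and DSW1200 (adjusted p = 0.00536) and by 2.37 between SeW and WR (adjusted p = 0.0226). Without SeW replicate 1 or 2 the adjusted p between SeW and TW was 0.0558 or 0.0834. Without SeW replicate 2 that between SeW and DSW1200 was 0.0723, and without any 1 of the WR or SeW arrays that between SeW and WR was 0.119 to 0.227. With the beta-actin ratio as a term *Abcb1a* kept its call between SeW and TW (adjusted p = 0.0282), but not between SeW and DSW1200 (0.140) or SeW and WR (0.177). All 3 calls were lost with no filter (0.0629 to 0.118) and with no intensity trend (0.0755 to 0.168). Its second probe set gave 92.3 and 255 in SeW, against 24.5 and 24.98 in TW, and was also highest in SeW. *Apoa4*, a lipoprotein of the enterocyte, rose by 0.89 between SeW and WR (adjusted p = 0.0494), a call lost without any 1 of the WR, DSW1200 or SeW arrays and with the beta-actin ratio as a term (adjusted p = 0.796). *Apob*, the scaffold of chylomicrons, was 0.57 higher in SeW than in TW (adjusted p = 0.0598), but 0.13 lower when the arrays were centred on their medians.

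The other 3 groups of genes gave no call in limma in any comparison. The first held 5 tested direct outputs of the clock such as *Usp2*, a ubiquitin protease (1.01 higher in SeW than in TW, adjusted p = 0.211). Another held 6 glucocorticoid genes, both induced genes and the receptor gene *Nr3c1*. Of these 6, 4 were higher in SeW than in TW, and *Tsc22d3* was 0.79 lower (adjusted p = 0.179 in limma). The last held 6 immediate early genes such as *Ier2* (0.01 higher, adjusted p = 0.987). In this order, the medians between SeW and TW were 0.52, 0.51 and 0.07 log2 units. In the same order 3, 2 and 0 genes passed an unadjusted p of 0.05, where 19.6% of all genes did. Glucocorticoids are a known signal by which the body sets clocks in peripheral tissues, and immediate early genes mark recent stimulation of cells.

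The genes whose pattern over the 8 arrays was most like that of *Nr1d1* were taken from 1469 genes with group means spanning at least 1 log2 unit. By Pearson's r they were *Fmo4* (0.97), *Frat2* (0.96), *Mfsd4b2l1* (0.96), *Srm*, spermidine synthase (0.95), *Pim3*, a kinase (0.94), and *Ank3* (0.92), and the most opposite were *LOC100910524* (-0.97), *Edc4* (-0.96), *Gigyf2* (-0.95), *Tifab* (-0.94), *Mnt* (-0.94) and *Srgap2* (-0.93). *Nr1d2* ranked 11 of 1469 with 0.91. Without the SeW arrays r with *Nr1d1* was still 0.98 for *Fmo4* and 0.78 for *Nr1d2*. These are 8 points that share groups, brightness and RNA state, and r is given as a description. With the mean of each gene's probe sets the r of *Gigyf2* was 0.31.

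For *Bmal1* the most alike were *Zscan20* (0.97), *Nfil3* (0.97), *Rars1*, an arginyl-tRNA synthetase (0.97), *Tmem252* (0.96), *Tprn* (0.96) and *Pstpip1* (0.96), and the most opposite were *Gstm2*, a glutathione transferase (-0.97), *Samd8* (-0.97), *Ddhd2* (-0.96), *Mfsd3* (-0.95), *Slc25a10* (-0.94) and *Cyp17a1* (-0.93). Over the 6 arrays outside SeW, r with *Bmal1* ran from -0.42 for *Nfil3* to 0.85 for *Tprn* among the 6 most alike, and from -0.73 for *Samd8* to -0.07 for *Cyp17a1* among the 6 most opposite. The r of *Nr1d1* was -0.70 with *Bmal1*, -0.74 with *Nfil3* and -0.87 with *Clock* over all 8 arrays, and 0.33, 0.26 and -0.68 without SeW. Outside SeW, r with *Nr1d1* was thus negative for *Clock* and positive for *Bmal1* and *Nfil3*. These are 6 points, and 1 of them, DSW1200 replicate 1, held both the lowest *Nr1d1* (1.26, close to the floor) and the highest *Clock* (257). No opposite course is read from them.

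Markers of cell types were read beside the clock genes. Of 9 enterocyte markers 7 were measured, *Sis* and *Lct* were not analysed here, and *Apoa4* is also in the transporter and lipid list. Their summed signal ranged from 25970 to 27100 in WR, 28690 to 29140 with DSW1200 and 31840 to 33370 with SeW, against 29710 to 30980 with TW. It was highest in SeW. The 6 T cell markers summed to 279.6 to 287 in WR, 306 to 357 with DSW1200 and 153 to 194 with SeW, against 181 to 269.5 with TW. Only 3 of them were bright enough to test. Of these, 1 was called lower in SeW against DSW1200 (1.47% of all genes, adjusted p = 0.0204 in limma). Against WR 1 was called lower (0.67% of all genes, adjusted p = 0.0464 in limma), and against TW 0 (1.11%). The 4 crypt and cycling markers measured summed to 73.3 to 95.5 in WR, 53.5 to 69.6 with DSW1200 and 69.7 to 107 with SeW, against 42.6 to 43.8 with TW. The Paneth marker *Defa5* was at the floor on every array. The part of cell make-up in the clock gene differences was not tested.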

How the data were processed

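What the authors deposited are linear MAS5 signal intensities, 1 per probe set and array, from Affymetrix Rat Genome 230 2.0 arrays. The MAS5 version is not given in the sources used here. The methods describe quantile normalization, but the deposited arrays have different medians, so each was quantile normalized over all 31099 probe sets; a floor of 1 was applied before log2. Detection calls were not used here. Genes were named from the platform annotation, updated through Entrez numbers, for 20826 probe sets with 1 symbol, while 436 with several and 9831 with none were left out. The brightest probe set stood for each gene. A limma 3.58.1 model (R 4.3.3) was fitted to the 8 arrays with a term for group and 4 degrees of freedom left for error, eBayes with an intensity trend and Benjamini-Hochberg adjustment over 9258 genes; the median SE of a log2 difference was 0.264. An exact permutation test of 2 arrays against 2 cannot give a p below 0.3333 and was not used. The method was tested on simulated data.

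The clock genes, the other lists and the rules for naming genes were chosen with earlier results of these data known. All 9 clock genes are named, with the 4 other tested clock genes and up to 3 downstream genes per list of the smallest F test p, and the 6 most alike and most opposite genes to *Nr1d1* and *Bmal1*. *Per3* and *Dbp* were added after their values were seen. Alternatives were a filter at 36.2 or none, an offset of 32, median centring, unscaled values, the mean of probe sets, a fit without intensity trend, a replicate block, a covariate for the ratio of 3′ to 5′ beta-actin signal, only the arrays compared, a 2-fold criterion with and without overlap, and each array left out. Promoter windows came from RefSeq. Figures were drawn with matplotlib 3.10.9.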

Additional observations from a re-analysis of the deposited data

How the results depend on the processing

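Calls rest on few arrays and on the model. For the 9 clock genes, the F test (2 called) gave 6 with values as deposited, 1 with the mean of probe sets, and 0 with no filter, no intensity trend or the beta-actin covariate, and 0 to 5 when 1 array was left out. SeW against TW (3) gave 6 as deposited, 6 by the 2-fold criterion with or without overlap, 1 with only the arrays compared, 0 with no filter, no intensity trend or the covariate, and 0 to 3 with 1 array left out. SeW against DSW1200 (6) gave 3 with median centring or the mean of probe sets, 0 with no filter, no intensity trend or the covariate, and 0 to 6 with 1 array left out. SeW against WR (4) gave 1 with the mean of probe sets, 2 with the replicate block, 0 with no filter, no intensity trend or the covariate, and 0 to 4 with 1 array left out. By the 2-fold criterion WR against TW gave 1 with or without overlap, DSW1200 against TW 1, and DSW1200 against WR 2 with or without overlap, all 0 in the model. The shares of all genes past 2-fold are given with each comparison above. With values as deposited, 2766 of all tested genes were called in the F test and 4395 in SeW against TW, where the model called 57 and 177. In SeW against DSW1200 they were 3740 and in SeW against WR 973, where the model called 252 and 114. With the covariate or no intensity trend at most 4 of all tested genes were called in any comparison, and with no filter at most 19.

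Of the other clock genes, 0 of the 9 tested were called in the model. Values as deposited, with 10 tested, gave 4 in the F test and 5 in SeW against TW, where 2766 and 4395 of all tested genes were called. They gave 4 in SeW against DSW1200 and 3 in SeW against WR, where 3740 and 973 of all were. An offset of 32, also with 10 tested, gave 1 in each of these (92 to 296 of all genes). No filter, with 17 tested, gave 1 in SeW against DSW1200 (*Per3*, too dim for the 9 and at the floor on both DSW1200 arrays, beside 19 of all genes). Only the arrays compared gave 1 in SeW against DSW1200 (253 of all genes) and in SeW against WR (446). Leaving out 1 array gave 0 to 1 in each of these 4. The 2-fold criterion, with or without overlap, gave 2 in SeW against TW and 1 in WR against TW, DSW1200 against TW, SeW against DSW1200 and SeW against WR. Shares of all genes past it are those given in the Results.

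Some directions turned. Between SeW and DSW1200, *Npas2* was 0.070 with values as deposited and *Clock* 0.14 with the covariate. Between SeW and WR, *Clock* was 0.077 with the covariate and 0.29 with the mean of probe sets. Between SeW and TW, *Apob* was -0.13 with median centring, *Tsc22d3* 0.18 as deposited, and *Ier2* -0.26 with the covariate and -0.047 to 0.062 with 1 array left out. Between WR and TW, *Nr1d2*, *Clock* and *Tef* turned with the mean of probe sets, *Nr1d2* to -0.12. The likeness of *Gigyf2* to *Nr1d1* was 0.31 with the mean of probe sets. The cause was not tested. *Cipc* passed the threshold between SeW and DSW1200 as deposited, with only the arrays compared, and without TW replicate 1 or 2 (adjusted p = 0.0250 and 0.0253 in limma).

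Replicate numbers did not pair the arrays: deviations of equally numbered arrays correlated between -0.0647 and 0.0398, and beside the counts above the replicate block gave 2 clock genes in the F test, 2 in SeW against TW and 4 in SeW against DSW1200, and lost *Apoa4* (adjusted p = 0.0765). With 2 arrays a group and signals near the floor for *Nr1d1*, *Per3* and *Dbp*, small differences were not detectable.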
